A study of Mus musculus with 4 samples.

Results

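The VEGF family comprised 9 genes of the 55401 genes in the deposited table, chosen by name: the ligand genes *Vegfa*, *Vegfb*, *Vegfc* and *Pgf*, the receptor genes *Flt1*, *Kdr* and *Flt4*, and the neuropilin genes *Nrp1* and *Nrp2*. They were read in CD45+ cells, that is, leukocytes, sorted from the dura mater of male wild-type C57BL/6J mice that had received an adeno-associated virus of serotype 9 into the cisterna magna at 4 wk of age. AAV-mVEGF-C carried full-length mouse VEGF-C. AAV-CTRL carried a part of the mouse VEGFR-3 ectodomain joined to an immunoglobulin tail, so both vectors encode sequence of a family member, and reads from a vector and from the genomic gene cannot be told apart in counts per gene. Each group had 2 libraries, named AAV-CTRL 1 and 2 and AAV-mVEGF-C 1 and 2 after the experiment number in the labels, and each library was a pool of several mice. The time between injection and sorting of these cells is not given in the sources used here. The p-values below measure the spread between these 4 pools.

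The VEGF ligands are secreted dimers that bind receptor tyrosine kinases on endothelial cells and on some leukocytes. VEGF-A, VEGF-B and PlGF, the product of *Pgf*, bind VEGFR-1 (*Flt1*); VEGF-A also binds VEGFR-2 (*Kdr*), the main receptor for blood vessel growth, and VEGF-C binds VEGFR-3 (*Flt4*), the main receptor for lymphatic growth, and VEGFR-2. The neuropilins are coreceptors without a kinase domain, and they also bind class 3 semaphorins; NRP2 acts with VEGFR-3. In leukocytes, VEGFR-1 is known on monocytes and macrophages, and NRP1 on regulatory T cells, dendritic cells and macrophages.

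Gene totals ran from 32520649 to 46409685 reads per library. The deepest library, AAV-CTRL 1, also detected the fewest genes, 20990, where the others detected 29221 to 37512. The sort was checked with *Ptprc*, the gene of CD45, which measured 1151 and 946 CPM in AAV-CTRL 1 and 2 against 1087 and 1039 CPM in AAV-mVEGF-C 1 and 2. CPM are a gene's reads relative to library size, scaled with edgeR's TMM factors. TPM, the authors' second unit, are also divided by transcript length, so that levels of different genes can be compared. Genes listed as endothelial were present at a wide range of levels, and their reads do not show which cells they came from. *Pecam1* was at 41.5 to 51.6 CPM and *Cdh5*, which encodes VE-cadherin, at 7.09 to 12.4 CPM. Of the lymphatic endothelial genes, *Stab2* was at 47.8 to 68.1 CPM and *Prox1*, the defining factor of that lineage, at 0.336 to 0.998 CPM.

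*Vegfc*, *Kdr*, *Pgf* and *Vegfb* were lower in both AAV-mVEGF-C libraries than in both controls, whereas *Vegfa*, *Flt1*, *Flt4*, *Nrp1* and *Nrp2* overlapped between the groups in CPM. All 9 genes passed edgeR's expression filter. None of the 9 passed a Benjamini-Hochberg adjusted p of 0.05 in the quasi-likelihood test of edgeR, nor did any of the 19806 genes tested (0%), and every member's adjusted p was 0.999. At an unadjusted p under 0.05, 2 of the 9 passed, *Kdr* and *Vegfc*, both lower, against 2.64% of all genes tested and 1.18% in that direction. DESeq2 also gave 0 of the 9 past its adjusted threshold, against 0.332% of all genes, and the same 2 at an unadjusted p under 0.05, against 2.1% of all genes. With single libraries left out of edgeR, the members at an unadjusted p under 0.05 were 4 without AAV-CTRL 1 (7.75% of all genes), 2 without AAV-CTRL 2 (28.9%), 0 without AAV-mVEGF-C 1 (0.795%) and 0 without AAV-mVEGF-C 2 (2.29%). The 4 genes lower without overlap stand against 15.2% of all genes tested, and the 0 genes higher without overlap against 16.8%. In bulk samples, fewer cells of a type and less RNA per cell cannot be told apart, and this holds for each difference below.

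For the genes whose groups did not overlap, and for *Vegfa* as the most abundant member, the bases before the RefSeq transcription start (build GRCm38.p6) are shown because these genes are read together below. Capitals mark the GC box, GGGCGG, and the core of the hypoxia response element, ACGTG or GCGTG, on either strand. The letters of the GC box were present in 32.7%, and those of ACGTG or GCGTG in 38.6%, of the 250 bases before the start of 32851 RefSeq transcript starts. Windows were cut from the first base in a GENCODE M21 exon of the gene onward. *Pgf* and a further start of *Vegfa* are not shown, since their windows began inside such an exon. The *Kdr* window was trimmed to 247 bases by the same rule.
Vegfc, chr8:54077282-54077531, plus strand: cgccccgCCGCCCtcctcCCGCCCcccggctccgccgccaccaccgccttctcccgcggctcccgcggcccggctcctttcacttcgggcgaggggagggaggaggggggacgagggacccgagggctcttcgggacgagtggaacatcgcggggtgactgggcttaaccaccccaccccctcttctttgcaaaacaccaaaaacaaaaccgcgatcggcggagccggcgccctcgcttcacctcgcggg
Kdr, chr5:75978459-75978705, minus strand: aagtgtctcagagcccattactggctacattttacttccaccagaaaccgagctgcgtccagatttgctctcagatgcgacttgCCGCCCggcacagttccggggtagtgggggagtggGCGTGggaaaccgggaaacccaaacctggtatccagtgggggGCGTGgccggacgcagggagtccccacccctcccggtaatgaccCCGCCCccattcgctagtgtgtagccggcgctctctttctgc
Vegfb, chr19:6987652-6987901, minus strand: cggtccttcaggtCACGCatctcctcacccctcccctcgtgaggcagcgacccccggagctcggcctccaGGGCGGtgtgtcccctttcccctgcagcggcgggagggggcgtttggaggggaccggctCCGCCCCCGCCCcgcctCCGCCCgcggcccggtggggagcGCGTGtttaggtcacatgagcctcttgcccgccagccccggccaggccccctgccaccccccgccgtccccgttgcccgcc
Vegfa, chr17:46032378-46032627, minus strand: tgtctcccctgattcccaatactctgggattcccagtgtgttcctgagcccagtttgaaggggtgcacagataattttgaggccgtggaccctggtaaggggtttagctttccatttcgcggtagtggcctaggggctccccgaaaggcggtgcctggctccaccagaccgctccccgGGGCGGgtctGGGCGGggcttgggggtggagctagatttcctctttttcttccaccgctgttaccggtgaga
The *Vegfb* window held 4 GC boxes and 2 hypoxia cores and had 76.4% G and C. The *Kdr* window held 2 of each, and the *Vegfc* and *Vegfa* windows held 2 GC boxes and 0 hypoxia cores. The 3 lower genes shown thus did not all have a hypoxia core in these windows, and bases farther upstream were not searched for any gene. A match of letters is a description and not a binding site.

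Ordered by TPM, the family spanned from *Vegfa*, at a mean of 34.98 ± 6.42 TPM (SD, n = 4 libraries of both groups), to *Flt4*, at 0.168 ± 0.0567 TPM. *Nrp1* followed *Vegfa* at 21.8 ± 5.56 TPM, and both were above their next neighbor in all 4 libraries with ranges that did not overlap. *Nrp2*, at 9.01 ± 1.10 TPM, and *Vegfb*, at 8.43 ± 2.70 TPM, had ranges that overlapped, and their order turned with the group: *Vegfb* was the higher in both controls and *Nrp2* in both AAV-mVEGF-C libraries. *Vegfb* was above *Vegfc*, at 2.09 ± 2.42 TPM, in 4 of 4 libraries, although their ranges overlapped. *Vegfc*, *Flt1* (1.27 ± 0.234 TPM), *Pgf* (0.851 ± 0.407 TPM) and *Kdr* (0.838 ± 0.326 TPM) overlapped with their neighbors. *Vegfc* and *Pgf* were each above *Flt1* in both controls and below it in both AAV-mVEGF-C libraries. The place of *Vegfc* rested on AAV-CTRL 1, at 5.63 TPM, without which its mean was 0.915 TPM, below *Flt1* at 1.37 TPM, and the short length behind that TPM is given below. *Flt4* was below *Kdr* in all 4 libraries, without overlap. Against all genes tested, *Vegfa* had a higher mean TPM than 89.8%, *Nrp1* than 83.2%, *Nrp2* than 66.5%, *Vegfb* than 65.1%, *Vegfc* than 41.8%, *Flt1* than 34.6%, *Pgf* than 29.0%, *Kdr* than 28.8% and *Flt4* than 9.38%. Ligands thus stood at both the high and the low part of the order, beside the neuropilins and the receptors.

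**Figure D1:**
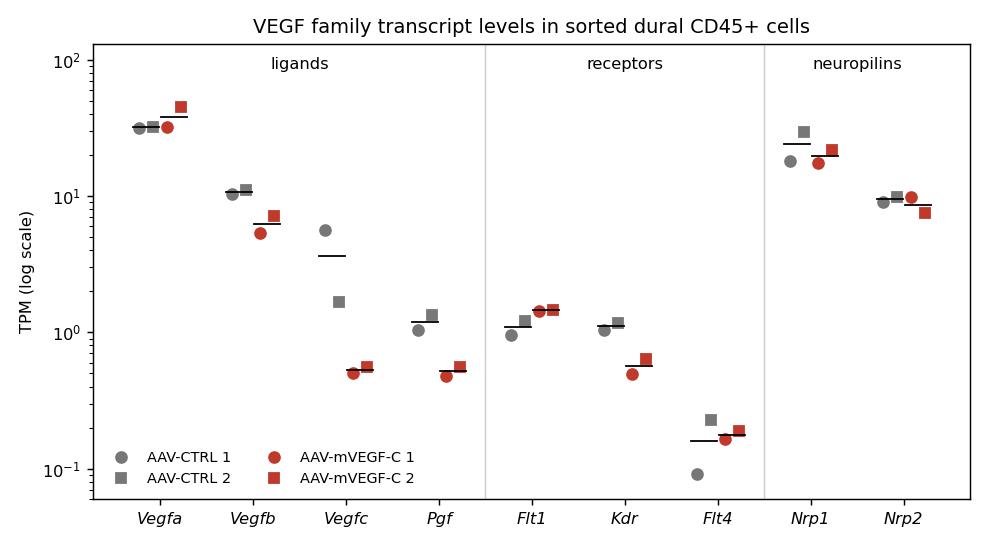
TPM (log axis) of the 9 VEGF family genes in each library, with gray points for AAV-CTRL, red points for AAV-mVEGF-C, circles for experiment 1, squares for experiment 2, and lines at the group means. *Vegfb*, *Vegfc*, *Pgf* and *Kdr* lie lower in both AAV-mVEGF-C libraries, and *Vegfa* is the most abundant gene in every library.

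*Vegfa* (ENSMUSG00000023951.18), the ligand induced by hypoxia and made by many cell types, lies on GRCm38 chromosome 17, 46016993 to 46032369, minus strand, as GENCODE M21 places version 17 of this gene. It measured 101 and 70.5 CPM in AAV-CTRL 1 and 2 against 76.4 and 104 CPM in AAV-mVEGF-C 1 and 2. One library of each group was high and the other low, and the log2 fold change from edgeR was 0.07 with a standard error (SE) of 0.24 (adjusted p = 0.999). *Vegfa* held 64.8% and 69.6% of the summed ligand TPM in AAV-CTRL 1 and 2 against 83.5% and 84.5% in AAV-mVEGF-C 1 and 2. Its share did not overlap between the groups, while its own TPM, at 31.3 and 32.2 in the controls and 31.8 and 44.6 after AAV-mVEGF-C, did. The log2 fold change of *Vegfa* was 0.34 without AAV-CTRL 1, 0.29 without AAV-mVEGF-C 1, −0.15 without AAV-CTRL 2 and −0.16 without AAV-mVEGF-C 2, so no direction is given.

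*Vegfb* (ENSMUSG00000024962.13; chromosome 19, 6982473 to 6987651, minus strand) encodes a ligand of VEGFR-1 linked to fatty acid handling and vessel survival. It measured 15.3 and 17.2 CPM in AAV-CTRL 1 and 2 against 9.68 and 13.03 CPM in AAV-mVEGF-C 1 and 2. The lowest control was 1.17-fold above the highest AAV-mVEGF-C library, and the log2 fold change was −0.51 (SE 0.25; edgeR adjusted p = 0.999, unadjusted p = 0.0814). It was −0.31 without AAV-mVEGF-C 1. The ratio of *Vegfa* to *Vegfb* TPM was 3.03 and 2.92 in the controls and 5.997 and 6.31 after AAV-mVEGF-C (two-sided, exact permutation p = 0.333, and 2 against 2 libraries allow none smaller).

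*Vegfc* (ENSMUSG00000031520.6; chromosome 8, 54077606 to 54187096, plus strand) is the gene carried by AAV-mVEGF-C. It was lower and not higher in the 2 CD45+ libraries of mice given that vector. It had 208 and 106 reads in AAV-CTRL 1 and 2 against 65 and 59 reads in AAV-mVEGF-C 1 and 2. In CPM, it was at 4.65 (95% Poisson interval, 4.04 to 5.33) and 3.08 CPM (2.52 to 3.73) in the controls. After AAV-mVEGF-C it was at 1.66 (1.28 to 2.12) and 1.86 CPM (1.42 to 2.40). These intervals hold only the error of counting, because PCR copies are not separate molecules. The highest AAV-mVEGF-C library was below both controls, with a gap of 1.66-fold, and the control mean was 2.19-fold above the AAV-mVEGF-C mean. The log2 fold change was −1.13 (SE 0.45; edgeR adjusted p = 0.999, unadjusted p = 0.0433). It was −0.82 without AAV-CTRL 1, which had the highest *Vegfc* level, and −1.39 without AAV-CTRL 2. These counts do not show the vector's transcript in the sorted cells as a higher *Vegfc* level.

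*Pgf* (ENSMUSG00000004791.7; chromosome 12, 85166635 to 85177790, minus strand) encodes PlGF, a ligand of VEGFR-1 known to act on monocytes and vessels. It was at 1.70 (95% Poisson interval, 1.34 to 2.13) and 2.59 CPM (2.08 to 3.18) in AAV-CTRL 1 and 2. After AAV-mVEGF-C it was at 1.05 (0.753 to 1.42) and 1.17 CPM (0.822 to 1.61). The counting intervals of AAV-CTRL 1 and the AAV-mVEGF-C libraries overlapped, and the log2 fold change was −0.95 (SE 0.56; edgeR adjusted p = 0.999, unadjusted p = 0.142). It was −1.24 without AAV-CTRL 1 and −0.61 without AAV-CTRL 2. *Vegfd*, the remaining lymphatic ligand and not one of the 9, had 0 and 22 reads in AAV-CTRL 1 and 2 against 10 and 2 reads in AAV-mVEGF-C 1 and 2 and was too low to be tested.

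Summed over the 4 ligands, the level was 47.3 ± 1.503 TPM (SD, n = 2) in AAV-CTRL and 45.4 ± 10.4 TPM in AAV-mVEGF-C (exact permutation p = 1). Without *Vegfa*, the remaining ligands summed to 17.0 and 14.02 TPM in AAV-CTRL 1 and 2 against 6.29 and 8.19 TPM in AAV-mVEGF-C 1 and 2 (exact permutation p = 0.333, the smallest possible). The sum of all ligands was thus mostly *Vegfa*. Each of the other 3 was itself lower without overlap in TPM, as were 28.5% of all genes tested. Their sum therefore could not overlap and is not a further result.

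**Figure D2:**
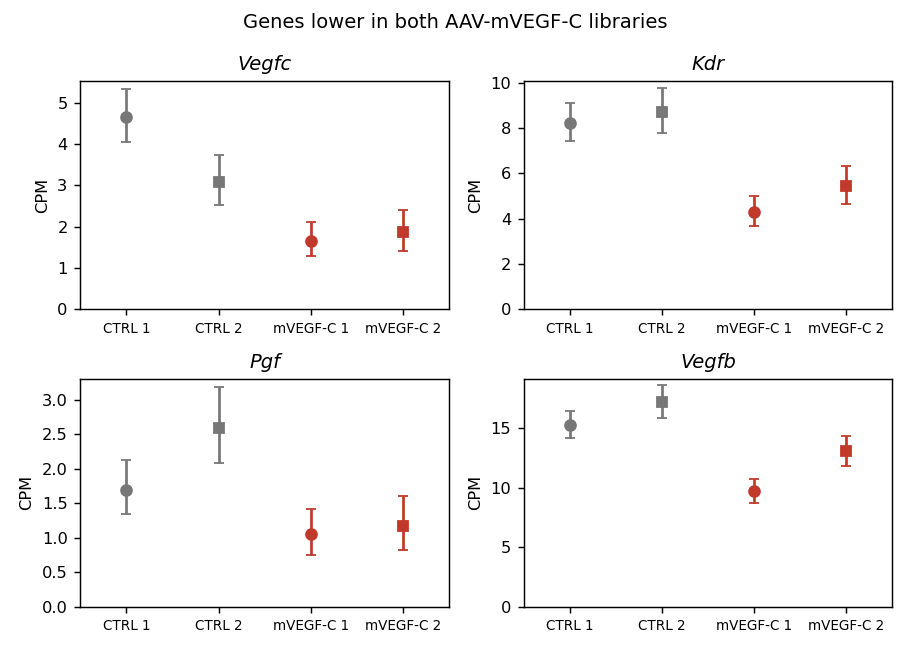
CPM (reads relative to scaled library size) of *Vegfc*, *Kdr*, *Pgf* and *Vegfb* in each library, with gray for AAV-CTRL and red for AAV-mVEGF-C, and bars for 95% Poisson intervals, which cover counting error only. Both AAV-mVEGF-C points lie below both control points in each panel, and the intervals of *Pgf* overlap between AAV-CTRL 1 and the AAV-mVEGF-C libraries.

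*Flt1* (ENSMUSG00000029648.13; chromosome 5, 147561604 to 147726011, minus strand), which encodes VEGFR-1, measured 9.37 and 9.25 CPM in AAV-CTRL 1 and 2 against 12.0 and 7.82 CPM in AAV-mVEGF-C 1 and 2. The AAV-mVEGF-C libraries lay on either side of the controls, and the log2 fold change was 0.09 (SE 0.30; edgeR adjusted p = 0.999). In TPM the picture differed, with 0.960 and 1.22 in the controls and 1.43 and 1.47 after AAV-mVEGF-C, which did not overlap. In TPM, 8.92% of all genes tested were higher and 28.5% lower without overlap.

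*Kdr* (ENSMUSG00000062960.10; chromosome 5, 75932827 to 75978458, minus strand), which encodes VEGFR-2, was lower after AAV-mVEGF-C on both scales. It measured 8.23 and 8.72 CPM in AAV-CTRL 1 and 2 against 4.30 and 5.43 CPM in AAV-mVEGF-C 1 and 2. The lowest control was 1.52-fold above the highest AAV-mVEGF-C library, and the spread within either group was smaller than this gap. The log2 fold change was −0.80 (SE 0.30; edgeR adjusted p = 0.999, unadjusted p = 0.0364), the lowest unadjusted p of the family and the 352nd lowest of the 19806 genes. The ratio of *Flt1* to *Kdr* TPM was 0.920 and 1.03 in the controls and 2.90 and 2.31 after AAV-mVEGF-C (exact permutation p = 0.333, the smallest possible). Since *Flt1* was higher and *Kdr* lower without overlap in TPM, this ratio could not overlap. In AAV-mVEGF-C 2, the *Flt1* TPM behind it came with a short length, given below, and with the lowest *Flt1* CPM of the 4 libraries.

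*Flt4* (ENSMUSG00000020357.3; chromosome 11, 49609263 to 49652739, plus strand) encodes VEGFR-3, the receptor through which VEGF-C drives lymphatic growth. It had 38 and 61 reads in AAV-CTRL 1 and 2 against 56 and 52 reads in AAV-mVEGF-C 1 and 2. Its level was 0.850 (95% Poisson interval, 0.601 to 1.17) and 1.77 CPM (1.36 to 2.28) in the controls and 1.43 (1.08 to 1.86) and 1.64 CPM (1.23 to 2.15) after AAV-mVEGF-C. The controls differed more from each other than the groups did, and the log2 fold change was 0.23 (SE 0.65; edgeR adjusted p = 0.999). It was −0.22 without AAV-CTRL 1 and 0.86 without AAV-CTRL 2, so no direction is given. The AAV-CTRL vector encodes a part of this receptor, and the controls were not both above the AAV-mVEGF-C libraries.

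Summed over the 3 receptors, the level was 2.36 ± 0.373 TPM (SD, n = 2) in AAV-CTRL and 2.19 ± 0.142 TPM in AAV-mVEGF-C (exact permutation p = 0.667). In CPM, where long genes weigh more, the receptor sum differed by −2.78 without overlap (exact permutation p = 0.333, the smallest possible). Without *Flt1*, the sum was 1.14 and 1.41 TPM in the controls and 0.659 and 0.825 TPM after AAV-mVEGF-C (exact permutation p = 0.333). Of the sum of all 3 receptors, *Kdr* held 49.8% and 44.9% in the controls and 23.6% and 27.7% after AAV-mVEGF-C, and *Flt1* held 45.8% and 46.5%, then 68.5% and 64.0%.

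*Nrp1* (ENSMUSG00000025810.9; chromosome 8, 128358604 to 128503363, plus strand) measured 90.6 and 136 CPM in AAV-CTRL 1 and 2 against 91.9 and 115 CPM in AAV-mVEGF-C 1 and 2. *Nrp2* (ENSMUSG00000025969.15; chromosome 1, 62703285 to 62818695, plus strand) was at 75.4 and 75.2 CPM in the controls and at 86.0 and 67.9 CPM after AAV-mVEGF-C. Both coreceptor genes overlapped between the groups. The log2 fold change was −0.13 for *Nrp1* (SE 0.24) and 0.03 for *Nrp2* (SE 0.17), with an adjusted p of 0.999 from edgeR for each. *Nrp1* exceeded *Nrp2* in TPM in all 4 libraries, with a ratio of 2.00 and 3.03 in the controls and 1.80 and 2.93 after AAV-mVEGF-C (exact permutation p = 0.667). Their sum was 33.3 ± 8.62 TPM (SD, n = 2) in AAV-CTRL and 28.3 ± 1.41 TPM in AAV-mVEGF-C (exact permutation p = 1). The log2 fold change of *Nrp1* was −0.41 without AAV-CTRL 1 and 0.20 without AAV-CTRL 2. The difference of the neuropilin sum, AAV-mVEGF-C minus AAV-CTRL, was −5.05 TPM, and it was −11.2 TPM without AAV-CTRL 1 and 1.04 TPM without AAV-CTRL 2, so its sign rested on AAV-CTRL 2.

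**Figure D3:**
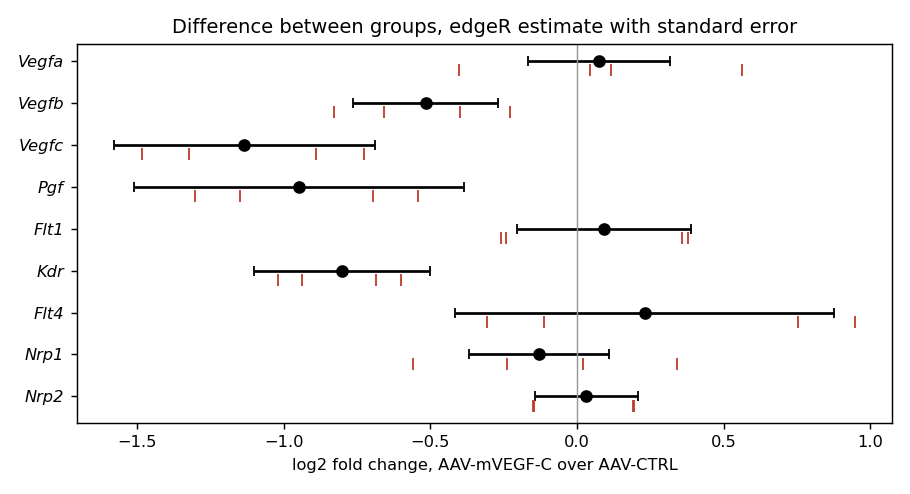
Log2 fold change of each VEGF family gene, AAV-mVEGF-C over AAV-CTRL, from edgeR (black points, with bars for 1 standard error, SE), and the log2 CPM ratios of the 4 pairs of an AAV-mVEGF-C and a control library (red ticks). For *Vegfb*, *Vegfc*, *Pgf* and *Kdr* all 4 ticks lie below 0, and for the other 5 genes they lie on both sides.

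The size of the *Vegfc* difference depended on the unit. In TPM, *Vegfc* was at 5.63 and 1.68 in AAV-CTRL 1 and 2 against 0.503 and 0.561 in AAV-mVEGF-C 1 and 2, so that the control mean was 6.87-fold higher, against 2.19-fold in CPM. Without AAV-CTRL 1 it was 3.16-fold higher in TPM and 1.75-fold in CPM, and without AAV-CTRL 2 it was 10.6-fold and 2.64-fold. Reads divided by TPM give the transcript length that the authors' program had used, after scaling on 486 genes with 1 annotated transcript, for which the largest and smallest length over the libraries differed by at most 1.08-fold in 95% of genes. For *Vegfc* this length was 613 and 1480 bases in the controls and 2316 and 2328 bases after AAV-mVEGF-C. GENCODE M21 lists *Vegfc* transcripts of 2449, 555 and 501 bases. The lengths differed 3.798-fold over the libraries, a ratio reached by 0.370% of 13228 genes with more than 50 reads in every library, whose median was 1.14. The length in AAV-CTRL 1 was thus near those of the short transcripts, and which transcripts the reads came from was not tested.

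The same holds in part for *Flt1*, whose length was 7235 and 6120 bases in the controls and 5866 and 3740 bases after AAV-mVEGF-C, a 1.93-fold range reached by 4.82% of genes. *Flt1* has long coding transcripts of 6895 and 6292 bases and shorter ones of 2049 and 2030 bases, and the soluble form of VEGFR-1 is known to come from a shortened transcript. The non-overlapping TPM of *Flt1* came with this shorter length in AAV-mVEGF-C 2, where its CPM was the lowest of the 4 libraries. *Vegfa* differed 1.46-fold, from 2392 bases in AAV-CTRL 1 to 1640 in AAV-mVEGF-C 2. *Kdr*, *Nrp1* and *Nrp2* differed by at most 1.04-fold. CPM and TPM gave the same order of libraries for *Kdr*, but not for *Nrp1* and *Nrp2*.

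**Figure D4:**
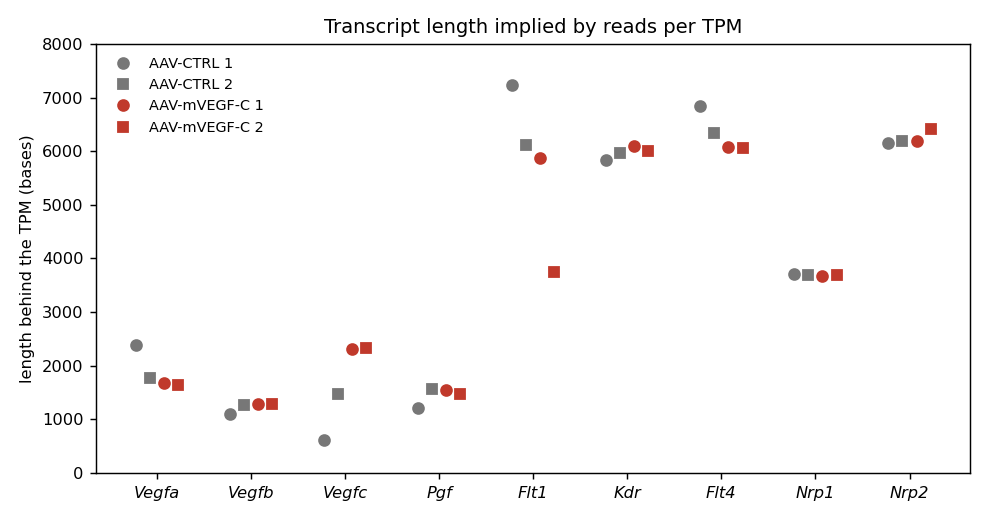
Transcript length in bases behind the TPM of each VEGF family gene and library, computed as reads per TPM and scaled on genes with 1 transcript, with gray for AAV-CTRL and red for AAV-mVEGF-C. *Vegfc* ranges from 613 to 2328 bases and *Flt1* from 3740 to 7235 bases, while the points of *Kdr*, *Nrp1* and *Nrp2* nearly coincide.

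Genes whose levels followed the family members most closely were sought among 202 tested genes of pathway and cell type lists and the 8 other family members. Likeness was the mean absolute difference of log2(CPM + 0.01) over the 4 libraries, after each gene was centered on its own mean, and with 4 libraries it is a description only. *Kdr* was closest to *Ptgds* (0.03), a prostaglandin D synthase gene of meningeal fibroblasts, and to *Pdgfra* (0.10), a fibroblast receptor gene. *Pgf* was closest to the collagen gene *Col1a1* (0.12) and to *Cox6a2* (0.12), and *Vegfb* to the fibroblast genes *Aldh1a2* (0.08) and *Lum* (0.09). *Vegfc* was closest to *Fcer1a* (0.15), a subunit of the mast cell IgE receptor, and to the semaphorin gene *Sema3c* (0.18). *Vegfa* was closest to *Slc2a1* (0.03), the glucose transporter gene that hypoxia also induces, and to *Hlx* (0.06). *Nrp1* was closest to *Stab2* (0.04), a scavenger receptor gene, and to the macrophage factor gene *Maf* (0.05). *Flt1* and *Nrp2* were each the closest to the other (0.08), and *Flt4* was closest to *Runx2* (0.08).

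Markers of several other cell types differed in the same direction as the lower family genes. Their sums are in TPM, on which more genes were lower than higher without overlap, and their log2 fold changes are from counts. The lists were chosen with earlier results of these data known, and genes of the same cell type can vary together. Counts of list genes beside the share of all genes are therefore descriptions only. The summed level of 12 fibroblast and stromal genes was 125 and 223 TPM in AAV-CTRL 1 and 2 against 71.3 and 105 TPM in AAV-mVEGF-C 1 and 2. All 12 had a log2 fold change below 0, with a median of −0.73 against 0.0034 for all genes tested, and 5 were lower at an unadjusted p under 0.05 in edgeR (0 adjusted), against 1.18% of all genes. The most abundant were *Col1a2* (log2 fold change −0.92, SE 0.32) and *Col1a1* (−0.97, SE 0.29), the genes of type I collagen. The 15 blood endothelial genes summed to 36.1 and 36.7 TPM in the controls and 24.4 and 27.0 TPM after AAV-mVEGF-C. *Pecam1* alone held 20.9 and 16.1 TPM of the control sums and 10.8 and 12.7 TPM of the sums after AAV-mVEGF-C. Of the 14 genes of this list that were tested, 11 were below 0 and the median was −0.44. *Pecam1* and *Erg*, the most abundant, were at −0.24 (SE 0.16) and 0.04 (SE 0.25). No marker of any list was at 0 reads in all libraries. *Kdr* is itself a gene of blood endothelium, and the part of stromal and endothelial RNA in the lower levels of *Kdr*, *Pgf*, *Vegfb* and *Vegfc* was not tested.

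The 7 mast cell genes summed to 1417 and 1060 TPM in the controls and 721 and 782 TPM after AAV-mVEGF-C. All 7 were below 0, with a median of −0.62, and 5 were lower at an unadjusted p under 0.05 in edgeR (0 adjusted), again beside 1.18% of all genes. This count is a description only, as for the fibroblast list. *Cma1*, a chymase gene, was at −0.62 (SE 0.25) and *Mcpt4*, a mast cell protease gene, at −0.62 (SE 0.23). Mast cells are CD45+ and are known to make VEGF ligands, and their part in the lower ligand levels was not tested. The 8 bone genes summed to 25.1 and 50.6 TPM in the controls and 23.9 and 28.0 TPM after AAV-mVEGF-C, and the 6 mural genes to 6.27 and 8.30 TPM and to 4.37 and 5.54 TPM. The bone sums overlapped between the groups and the mural sums did not. The 7 leukocyte genes, markers of the sorted cells themselves, summed to 1890 and 1643 TPM in the controls and 1454 and 1629 TPM after AAV-mVEGF-C, also lower without overlap, while their median log2 fold change from counts was −0.02, with *Coro1a* at −0.07 (SE 0.20) and *Lcp1* at −0.02 (SE 0.21).

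**Figure D5:**
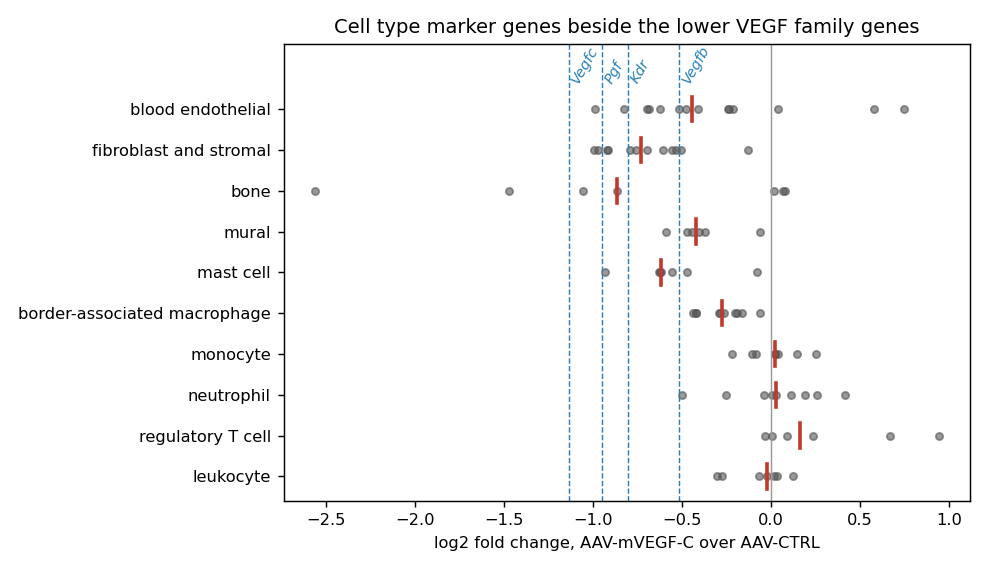
Log2 fold changes, AAV-mVEGF-C over AAV-CTRL, of the tested marker genes of 10 cell types (gray points, with red bars at the medians), and dashed lines at the values of *Vegfc*, *Pgf*, *Kdr* and *Vegfb*. The medians of fibroblast, bone, mast cell, blood endothelial, mural and border-associated macrophage genes lie below 0, the last at −0.28. That of regulatory T cell genes is 0.16, and those of leukocyte, monocyte and neutrophil genes lie near 0.

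Genes that act with the family were read from 5 lists, in which 0 genes passed the adjusted threshold. Of 15 genes for processing and binding of VEGF-C and VEGF-D, 13 were tested, 0 had an unadjusted p under 0.05 in edgeR, and the median log2 fold change was −0.15. *Ctsd*, the gene of cathepsin D, and *Itgb1*, the gene of integrin beta 1, were the most abundant, at −0.15 (SE 0.18) and −0.03 (SE 0.16). *Furin*, which encodes a protease that cleaves pro-VEGF-C, was at 219 and 194 CPM in the controls and 254 and 254 CPM after AAV-mVEGF-C (0.30, SE 0.16), and *Adamts2* was at −0.80 (SE 0.38). Of 12 class 3 semaphorin and plexin genes, whose products share the neuropilins, 0 had an unadjusted p under 0.05, and the median was −0.27. *Plxnd1*, the most abundant, was at 0.26 (SE 0.15) and *Plxna1* at 0.09 (SE 0.17). *Sema3c* and *Sema3d* were at −1.27 (SE 0.53) and −1.17 (SE 0.52).

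Of 33 genes of signaling below the VEGF receptors, 1 had an unadjusted p under 0.05 in edgeR, a share near the 2.64% of all genes tested, and the median was 0.01. That gene was *Sh2d2a*, which encodes the adaptor TSAd that binds VEGFR-2 and is also a T cell adaptor, at 64.0 and 73.5 CPM in the controls and 87.6 and 94.5 CPM after AAV-mVEGF-C (0.41, SE 0.16). *Rac1* and *Cdc42*, GTPase genes and the most abundant of the list, were at 0.05 (SE 0.15) and −0.14 (SE 0.19), and *Map2k1* was at 0.24 (SE 0.15). Of 23 hypoxia genes, 0 had an unadjusted p under 0.05, and the median was 0.01. *Ldha*, *Bnip3l*, *Vhl* and *Egln2* were at −0.26, −0.12, 0.38 and 0.20, with SEs of 0.21, 0.22, 0.18 and 0.16. Of 17 genes that VEGF induces in endothelium, 1 had an unadjusted p under 0.05 (2.64% of all genes), the apelin receptor gene *Aplnr* (−1.36, SE 0.55), and the median was 0.01. Nothing is read from counts of 1. Of these 17 genes, 8 had a log2 fold change below 0. Without overlap, 4 were lower and 3 higher, beside 15.2% and 16.8% of all genes tested. *Nr4a1* and *Tnfaip3*, the most abundant of that list and also induced in activated leukocytes, were at 0.25 (SE 0.21) and 0.31 (SE 0.17), and *Rcan1* was at 0.52 (SE 0.23).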

How the data were processed

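The authors prepared libraries that keep strand from the total RNA of sorted dural CD45+ cells, using a low-input Takara kit, and sequenced both read ends. The submitters' processing notes name FastQC, Trimmomatic, DRAGEN, Picard and mm10. The authors deposited estimated counts per gene, without normalization, of which 8.18% were not whole, and TPM for the same genes. The estimated counts were rounded.

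edgeR 4.0.16 in R 4.3.3 was fitted to all 4 libraries without covariates, with TMM scaling, filterByExpr and glmQLFTest, and p-values were adjusted over all 19806 tested genes. The standard error is the log2 fold change divided by the square root of F. The scripts were tested on simulated data. Positions were taken from GENCODE M21 (GRCm38), where 8 of the 9 members have the same version as in the table. Promoter sequences of RefSeq were matched by symbol.

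Alternatives were DESeq2 1.42.0, limma 3.58.1 (voom, and log2 TPM with pseudocounts of 1 and 0.1), RLE scaling, other filters, a replicate block, and each library left out.

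The members and lists were chosen with earlier results of these data known. Named were the 9 members, their closest genes, the most abundant genes of each list and, for pathway lists, those with the lowest p. *Cdh5*, *Prox1* and *Vegfd* were named after their values were seen.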

Additional observations from a re-analysis of the deposited data

How the results depend on the processing

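None of the 9 VEGF family genes passed an adjusted p of 0.05 in any of the alternatives run, and *Vegfb*, *Vegfc*, *Pgf* and *Kdr* kept a log2 fold change below 0 in all 13. Their lowest adjusted p was 0.0591, for *Vegfc* without AAV-CTRL 2. *Nrp2* turned to −0.13 with log2(TPM + 1) and −0.15 with log2(TPM + 0.1), scales on which the median of all genes was −0.08 and −0.11.

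With single libraries left out, where the lone library of a group is assumed to vary like the pair of the other, the log2 fold change ranged from −0.16 to 0.34 for *Vegfa*, −0.24 to 0.37 for *Flt1*, −0.22 to 0.86 for *Flt4*, −0.41 to 0.20 for *Nrp1* and −0.14 to 0.20 for *Nrp2*, crossing 0. It ranged from −0.74 to −0.31 for *Vegfb*, −1.39 to −0.82 for *Vegfc*, −1.24 to −0.61 for *Pgf* and −0.97 to −0.63 for *Kdr*. The difference in summed TPM, AAV-mVEGF-C minus AAV-CTRL, ranged from −9.14 to 5.52 for ligands, −0.432 to 0.0965 for receptors and −11.2 to 1.04 for neuropilins.

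Of all genes, 0 passed in edgeR (523 unadjusted), 76 in DESeq2, 268 without a filter and 2 to 2058 with single libraries left out (412 without AAV-CTRL 1, 2058 without AAV-CTRL 2, 2 without AAV-mVEGF-C 1 and 65 without AAV-mVEGF-C 2). The cause was not tested. The experiment numbers of the titles and the numbers in the table's column names differ, so the pairing is not settled. With a replicate block 11 genes passed, *Kdr* was at −0.81 and *Vegfc* at −1.11. In that edgeR fit, 1 of the 9 instead of 2 had an unadjusted p under 0.05 (2.65% of all genes). It was *Kdr* (0.0462), while *Vegfc* was at 0.0675. The numbers were also crossed, chosen after seeing the data because same-numbered deviations correlated at −0.134 across genes. Then 54 passed and 0 of the 9, neither *Kdr* nor *Vegfc*, had an unadjusted p under 0.05 (3.22% of all genes). With fewer than 70 reads in some libraries, counting error limits *Flt4*, *Pgf* and *Vegfc*.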

Other observations

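The 10 border-associated macrophage genes summed to 350 and 457 TPM in AAV-CTRL 1 and 2 against 260 and 337 TPM in AAV-mVEGF-C 1 and 2, and all 10 had a log2 fold change below 0, with a median of −0.28 and 0 at an unadjusted p under 0.05 in edgeR. The most abundant were *F13a1* (−0.19, standard error 0.17) and *Mrc1* (−0.29, standard error 0.26). The 8 monocyte genes had a median of 0.02, with *Chil3* at −0.22 (standard error 0.35) and *Nr4a1* at 0.25 (standard error 0.21), and the 9 neutrophil genes a median of 0.03. The neutrophil genes summed to 32258 TPM in AAV-CTRL 1, the library with the highest *Vegfc* level, and to 15418, 17894 and 20725 TPM in AAV-CTRL 2 and AAV-mVEGF-C 1 and 2, and their part in the *Vegfc* difference was not tested. The most abundant were *S100a9* at 0.0056 (standard error 0.36) and *S100a8* at 0.03 (standard error 0.34).

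The 6 regulatory T cell genes had a median of 0.16, with *Tnfrsf18* at −0.03 (standard error 0.19) and *Il2ra* at 0.09 (standard error 0.19). Of the 6, 2 were higher without overlap, beside 16.8% of all genes, and are named after their values were seen. *Foxp3*, the defining factor of these cells, was at 6.37 and 4.42 CPM in the controls and 8.32 and 8.83 CPM after AAV-mVEGF-C (0.67, standard error 0.32), and *Ctla4* was at 22.4 and 11.6 CPM and at 39.4 and 26.1 CPM (0.95, standard error 0.36, edgeR unadjusted p = 0.0396 and adjusted p = 0.999). The 6 plasmacytoid dendritic cell genes had a median of −0.28, with *Bst2* at −0.06 (standard error 0.39) and *Tcf4* at −0.09 (standard error 0.28). The 8 tested of 9 lymphatic endothelial genes had a median of −0.20, with *Stab2* at −0.04 (standard error 0.22) and *Reln* at −0.62 (standard error 0.45), and *Prox1* counted 15 and 13 reads in the controls against 39 and 26 after AAV-mVEGF-C. The 6 tested of 8 neural genes had a median of −0.33, with *Mbp* at 0.16 (standard error 0.16) and *Snap25* at −0.83 (standard error 0.57). The 7 tested of 8 bone genes, 4 of them below 0, had a median of −0.87, with *Runx2* at 0.08 (standard error 0.30) and *Alpl* at −0.87 (standard error 0.32), and the 6 mural genes a median of −0.42, with *Acta2* at −0.44 (standard error 0.27) and *Rgs5* at −0.37 (standard error 0.40).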
